A study of Mus musculus with 2 samples.

Results

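The miR-15, miR-16 and miR-195 family was described here in gastrocnemius muscle through its 5 listed genes, of 2202 annotated miRNA genes in the count tables. The genes are Mir15a and Mir16-1, which lie together on chromosome 14, Mir15b and Mir16-2, which lie together on chromosome 3, and Mir195a on chromosome 11. They were chosen by gene symbol, each found through its gene identifier in the GENCODE M21 annotation. No threshold on a measured value entered the rule, though earlier results of these data were known when the genes were chosen. All 5 had at least 10 reads in both libraries.

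The samples were 2 microRNA libraries from the gastrocnemius, a calf muscle, of male B6CASTF1/J mice aged 25 days, an F1 hybrid strain. They form 1 group with no treatment and no control, and they are numbered biological replicates 2 and 1. The labels name a different male for each but carry a single donor identifier, so the spread between the replicates may be that between animals or only that between preparations. Values are raw read counts on the strand of the gene or CPM, the count scaled to 1000000 gene counts of its library, given as mean ± SD over both libraries (n = 2). A microRNA read covers a mature miRNA from end to end, so counts were not divided by gene length.

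MicroRNAs are cut from hairpin precursors and pair with messenger RNAs through bases 2 to 8 of the mature strand, the seed. The miR-15 family is known for holding cells in the first gap phase of the cell cycle: its targets include cyclin D1, cyclin E1, CDK6 and CHEK1, and also the survival factor BCL2. Mir15a and Mir16-1 are deleted in many human chronic lymphocytic leukaemias, and in mice miR-195 rises in the heart after birth, when muscle cells there stop dividing.

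The mature strands from the 5' arms of these hairpins show why the genes are treated as a family. The sequences, from RefSeq (GRCm38.p6), are written 5' to 3' with the seed in capitals, first those of the members and then those of 3 relatives on chromosomes 11 and X.
miR-15a-5p: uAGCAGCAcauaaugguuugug
miR-15b-5p: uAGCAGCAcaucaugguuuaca
miR-16-5p: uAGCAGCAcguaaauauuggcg
miR-195a-5p: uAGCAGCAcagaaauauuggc
miR-497a-5p: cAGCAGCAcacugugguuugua
miR-322-5p: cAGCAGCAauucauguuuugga
miR-503-5p: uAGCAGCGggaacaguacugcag

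The 5 members give 4 distinct 5' strands with 1 seed, AGCAGCA. Counted from 1 at the 5' end, miR-15a-5p and miR-15b-5p differ at 4 of 22 positions (A12C, G20A, U21C and G22A, miR-15a first). miR-16-5p and miR-195a-5p differ at only 2 of the 21 positions they share (G10A and U11G, miR-16 first), whereas miR-15a-5p and miR-16-5p differ at 6. The family thus holds a miR-15 pair and a miR-16 and miR-195 pair of closer sequence. Besides the members, 6 mouse miRNA genes in the RefSeq table carry the same seed, among them Mir322 and Mir497. The seed of miR-503-5p is AGCAGCG, with the substitution A8G relative to miR-15a-5p.

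miR-16-5p is made by both Mir16-1 and Mir16-2, and this bears on every value of these genes below. The hairpins are printed with their longest common stretch, of 23 bases, in capitals.
Mir16-1: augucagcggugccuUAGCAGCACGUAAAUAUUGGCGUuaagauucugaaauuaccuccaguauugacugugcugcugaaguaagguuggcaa
Mir16-2: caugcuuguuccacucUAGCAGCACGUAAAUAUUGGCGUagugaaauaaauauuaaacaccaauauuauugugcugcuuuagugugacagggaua

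The stretch in capitals holds the whole of miR-16-5p, so a read of that strand matches both hairpins. Reads that aligned to several loci are kept apart in the deposited tables and belong to no gene, and such reads were the majority, 71.8% of the total for replicate 2 and 69.8% for replicate 1. The rows of Mir16-1 and Mir16-2 are therefore limited to reads with a single place in the genome, and they understate miR-16. Their 3' strands can be told apart, differing at 10 of 22 positions:
miR-16-1-3p: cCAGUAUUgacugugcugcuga
miR-16-2-3p: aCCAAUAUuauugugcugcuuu
The tables count per gene and do not say which arm a read came from. None of the 22-base windows of Mir15a, Mir15b or Mir195a occurred in another annotated miRNA gene, against 2 of 72 windows in Mir16-1 and 2 of 74 in Mir16-2.

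The loci differ in their hosts. Mir15a (ENSMUSG00000093007.1, chr14:61632027-61632110, minus strand, mm10) and Mir16-1 (ENSMUSG00000092995.1, chr14:61631880-61631972) are 54 bases apart in intron 4 (of the longest spanning transcript) of Dleu2, a long non-coding RNA, and are intronic in all 8 Dleu2 transcripts that span them. Mir15b (ENSMUSG00000065580.2, chr3:69009772-69009835, plus strand) and Mir16-2 (ENSMUSG00000065606.1, chr3:69009902-69009996) are 66 bases apart in intron 5, counted likewise, of Smc4, which encodes a condensin subunit that compacts chromosomes in mitosis. They are intronic in all 5 Smc4 transcripts that span them. Mir195a (ENSMUSG00000065411.2, chr11:70235042-70235135, plus strand) lies 241 bases downstream of Mir497, and no host gene on its strand is annotated in M21. No miRNA gene is annotated opposite any of the 5 members, and the column of opposite-strand reads was at 0 for each of them in both libraries.

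Replicate 2 had 2028332 gene counts and replicate 1 had 1491341. For a gene whose reads fit a single locus, no count allows up to 1.48 CPM (replicate 2) or 2.01 CPM (replicate 1), the level of 3 counts; the bound does not hold for genes whose mature sequence lies at several loci. The muscle miRNA Mir206 had 94404 counts in replicate 2 and 79589 in replicate 1, and the 9 listed skeletal muscle genes held 5.18 ± 0.472% of the total, nearly all of it from Mir206. The lowest of them, Mir133a-2, had 8 counts in replicate 2 and 1 in replicate 1. Mir1a-1, Mir133a-1 and Mir133b had between 15 and 43 counts in a library. Each of these genes has 20 or more bases in common with a further miRNA gene. Their low counts therefore do not give the level of miR-1 or miR-133 in the muscle. Of the listed neuronal genes 5 of 6 had no count and Mir9-3 had 1 in each library, but each of the 6 has 20 or more bases in common with a further miRNA gene, so these counts do not bear on neuronal content. The liver miRNA Mir122 had 23 counts in replicate 2 and 20 in replicate 1. Among the muscle genes without a 20-base stretch in another miRNA gene, Mir499 had 1084 counts in replicate 2 and 499 in replicate 1. Mir208b had 454 counts in replicate 2 and 136 in replicate 1. The muscle label thus rests mainly on Mir206 in these counts, with Mir499 and Mir208b at lower levels. The endothelial gene Mir126a and the smooth muscle genes Mir143 and Mir145a were abundant too, and all 3 were higher in replicate 2, with log2 ratios of 0.17, 0.42 and 0.54 over replicate 1 in the test described below.

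The family was a minor part of the placed reads and its total was almost the same in both libraries. Its 5 genes held 7620 counts in replicate 2, or 0.376% of gene counts (exact 95% interval 0.367 to 0.384), and 5673 counts in replicate 1, or 0.380% (0.371 to 0.390). The intervals overlap, and the mean was 0.378 ± 0.00334%. In whole muscle, fewer cells of a type and less RNA per cell cannot be told apart, and this holds for every level given here. Within the total the genes were unequal, as the plot of levels by gene shows.

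**Figure D1:**
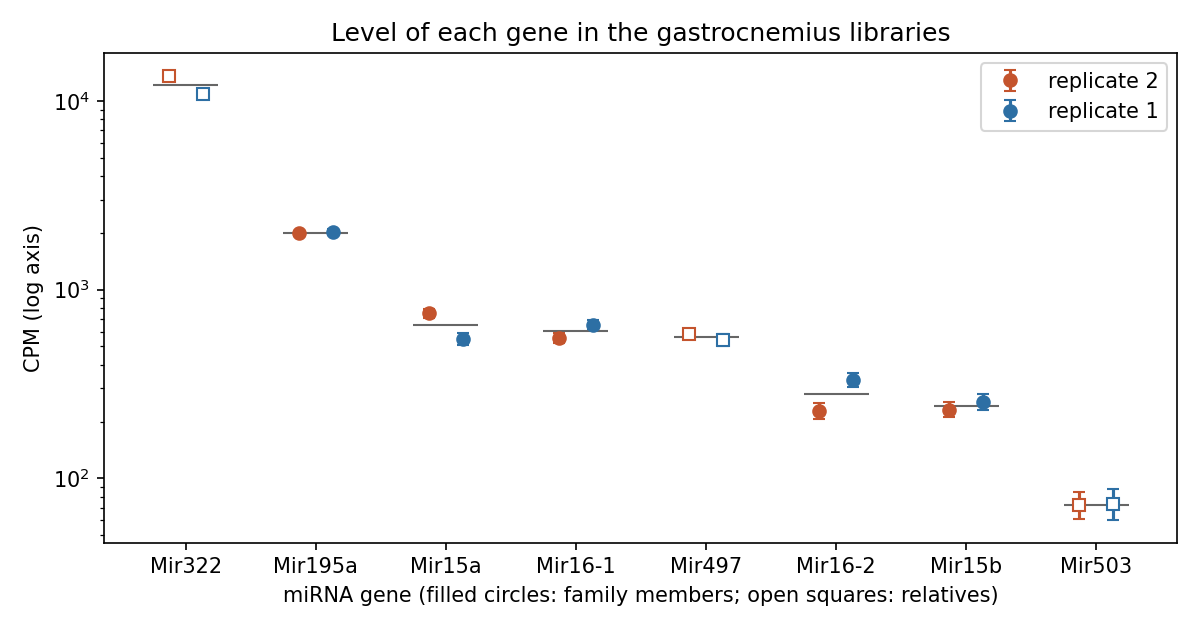
CPM of each gene on a log axis in replicate 2 (left point of each pair) and replicate 1 (right point), with exact 95% counting intervals and a grey line at the mean. In these reads placed at 1 locus, Mir195a stands well above the other members, and Mir322 above it. Mir15a, Mir16-1 and Mir497 lie at about one level, and Mir16-2 and Mir15b at a lower one.

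Mir195a was the most abundant member. It had 4043 counts in replicate 2, or 1993 CPM (exact 95% interval 1932 to 2056), and 3010 counts in replicate 1, or 2018 CPM (1947 to 2092). The value of each library lay inside the interval of the other, with a mean of 2006 ± 17.7 CPM. It ranked 47th of all genes by mean level, above 82.4% of the 267 genes with at least 10 counts in both libraries.

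Mir15a and Mir16-1 came next in the placed reads. Mir15a had 1519 counts (749 CPM) in replicate 2 and 816 counts (547 CPM) in replicate 1, a mean of 648 ± 143 CPM. Mir16-1 had 1126 counts (555 CPM) in replicate 2 and 970 counts (650 CPM) in replicate 1, a mean of 603 ± 67.4 CPM. Their ranges overlapped, so the order between them was not larger than the spread between the replicates: Mir15a was the higher gene in replicate 2 and the lower one in replicate 1.

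Mir16-2 and Mir15b, from the Smc4 intron, were the lowest members in the placed reads. Mir16-2 had 462 counts (228 CPM) in replicate 2 and 497 counts (333 CPM) in replicate 1, a mean of 281 ± 74.6 CPM. Mir15b had 470 counts (232 CPM) in replicate 2 and 380 counts (255 CPM) in replicate 1, a mean of 243 ± 16.3 CPM. These ranges overlapped as well, and again the order of the genes differed between the replicates.

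In the placed reads the levels thus fell into 3 steps whose ranges did not overlap. The place of miR-16 itself among them is not known. Mir195a was 3.10 times the mean of Mir15a. The Dleu2 locus, with Mir15a and Mir16-1 summed, had 1304 CPM in replicate 2 against 1198 CPM in replicate 1, and the Smc4 locus, with Mir15b and Mir16-2 summed, had 459 CPM in replicate 2 against 588 CPM in replicate 1. The lowest value at the Dleu2 locus was above the highest at the Smc4 locus. The miR-15 genes alone, which share no 22-base window with another miRNA gene, showed the same order: Mir15a had 3.23 times the counts of Mir15b in replicate 2 and 2.15 times in replicate 1.

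Mir195a held 53.1% of the family's counts in both libraries. Mir15a held 19.9% of them in replicate 2 (exact 95% interval 19.0 to 20.8) and 14.4% in replicate 1 (13.5 to 15.3). Mir16-1 held 14.8% in replicate 2 and 17.1% in replicate 1, Mir16-2 held 6.06% in replicate 2 and 8.76% in replicate 1, and Mir15b held 6.17% in replicate 2 and 6.70% in replicate 1. The intervals of the replicates overlapped for Mir195a and Mir15b and did not overlap for Mir15a, Mir16-1 and Mir16-2.

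**Figure D2:**
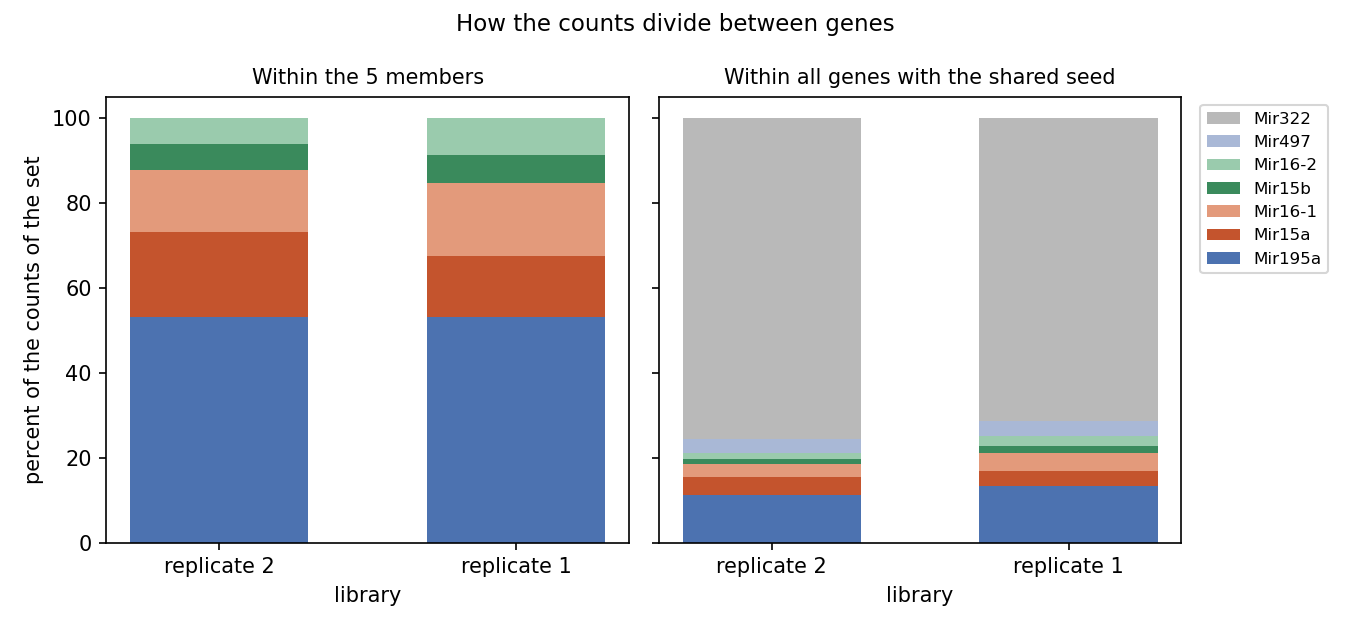
Percent of counts held by each gene in replicate 2 (left bar of each panel) and replicate 1 (right bar), within the 5 members (left panel) and within all genes that carry the AGCAGCA seed (right panel). Mir195a takes 53.1% of the member counts in both libraries, and Mir322 takes 75.7% of the seed group in replicate 2 and 71.5% in replicate 1. Reads of miR-16-5p that matched both Mir16 hairpins are not in these counts.

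Among reads placed at 1 locus, Mir322 had most of the counts of the genes with this seed. These counts leave out reads of miR-16-5p that matched both Mir16 hairpins, and they include reads of either arm. Over the 11 genes with the seed, which held 1.78% of gene counts in replicate 2 and 1.52% in replicate 1, the members made up 21.1% in replicate 2 and 25.0% in replicate 1. Mir322, the mouse counterpart of human miR-424 and part of an X-linked cluster with Mir503, had 27397 counts in replicate 2 and 16228 in replicate 1. Its mean of 12194 ± 1857 CPM was 6.08 times that of Mir195a, and its range did not overlap that of any member.

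Mir497, which shares a locus with Mir195a and the seed with all members, stood at the level of Mir16-1. It had 1181 counts (582 CPM) in replicate 2 and 809 counts (542 CPM) in replicate 1, and its range overlapped those of Mir16-1 and Mir15a. Mir503, with its different seed, had 147 counts in replicate 2 and 109 in replicate 1, or 72.8 ± 0.435 CPM. The other 4 genes with the seed, Mir195b, Mir6342, Mir6353 and Mir6419, had no count in either library. The ranges are those of reads placed at 1 locus, and with reads of miR-16-5p itself left out, the place of miR-16 in this order is not known from these data.

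The replicates were then set against each other gene by gene (exact binomial test, two-sided). The test asks only whether 2 libraries differ beyond counting error, since the series has no condition to test. Of the 5 members, Mir15a was higher in replicate 2, Mir16-1 and Mir16-2 were lower, and the other 2 missed the threshold of 0.05 after Benjamini-Hochberg adjustment over 313 genes. Over all tested genes 38.3% passed, 19.8% higher and 18.5% lower in replicate 2. Of 67 other genes within the members' range of mean CPM, 39 passed (58.2%), so that 3 of 5 members is close to the share at their depth.

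For Mir15a the log2 ratio of replicate 2 over replicate 1 was 0.46 (95% interval 0.34 to 0.59, exact binomial test adjusted p = 4.53e-13). Mir16-2 was lower in replicate 2 at -0.54 (-0.72 to -0.35, exact binomial test adjusted p = 4.31e-08). Mir16-1, from the same intron as Mir15a, was lower as well at -0.22 (-0.34 to -0.09, exact binomial test adjusted p = 0.00211). The called genes thus went in opposite directions, also within the Dleu2 intron.

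Mir15b stood at -0.13 (-0.32 to 0.07, exact binomial test adjusted p = 0.345) and Mir195a at -0.01 (-0.08 to 0.06, exact binomial test adjusted p = 0.891). The interval of Mir195a reached no further than 0.08 on the log2 scale. It covers counting error only, so it sets no limit on a difference from other sources. The median of the members was -0.13 and that of all tested genes 0.05.

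When the spread between the libraries was added to counting error, none of the members passed (edgeR exact negative binomial test, adjusted p = 1 for each). Over all 313 genes that test called 0, and 15 had a p under 0.05 before adjustment, of which 0 were members. The spread, a biological coefficient of variation of 18.0% over 267 genes, was taken from the same libraries, so the test weighs against any call and does not show that the replicates were alike.

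**Figure D3:**
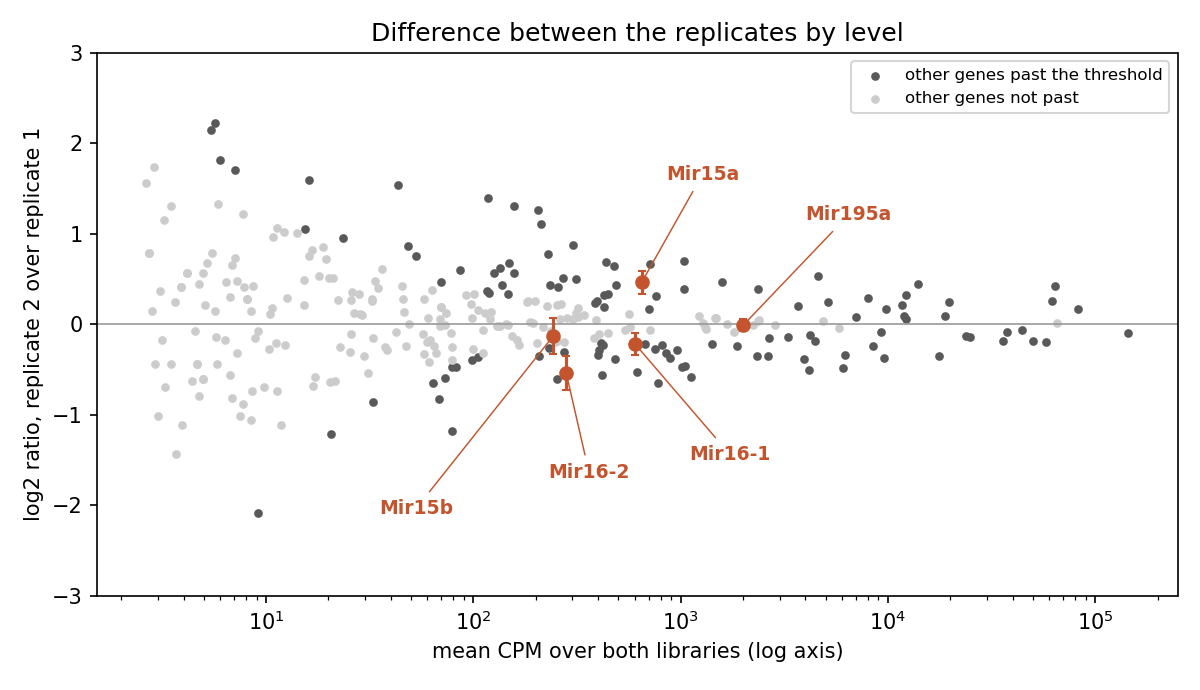
Log2 ratio of replicate 2 over replicate 1 against mean CPM (log axis) for the 313 tested genes, with the 5 members in orange and their exact 95% counting intervals. The members lie between -0.54 (Mir16-2) and 0.46 (Mir15a), within the spread of other genes of their level.

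Ratios within a library need no normalization and set the hairpins of a locus against each other. Mir15a over Mir16-1 had a log2 ratio of 0.43 (exact 95% interval 0.32 to 0.54) in replicate 2 and -0.25 (-0.39 to -0.11) in replicate 1. Mir15b over Mir16-2 had 0.02 (-0.16 to 0.21) in replicate 2 and -0.39 (-0.58 to -0.19) in replicate 1. At both loci the miR-15 gene took a larger part of the placed reads in replicate 2, by 0.68 and 0.41 on the log2 scale. Neither locus had intervals that overlapped between the replicates. Means over the replicates were 0.09 ± 0.48 and -0.18 ± 0.29. In the placed reads, neither gene of a pair was thus above the other by more than the spread between the replicates.

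Mir195a over Mir497 was steadier. Its log2 ratio was 1.78 (1.68 to 1.87) in replicate 2 and 1.90 (1.78 to 2.01) in replicate 1, a mean of 1.84 ± 0.08. Mir195a was the higher gene of its locus in both libraries, and the intervals overlapped.

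Between the loci, like genes kept their order. Mir15a over Mir15b was 1.69 (1.54 to 1.84) in replicate 2 and 1.10 (0.93 to 1.28) in replicate 1, and Mir16-1 over Mir16-2 was 1.29 (1.13 to 1.44) in replicate 2 and 0.96 (0.81 to 1.12) in replicate 1. The hairpins at Dleu2 were higher than those at Smc4 in all 4 of these comparisons. For the miR-16 genes the ratio rests on the reads that could be placed at 1 locus.

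**Figure D4:**
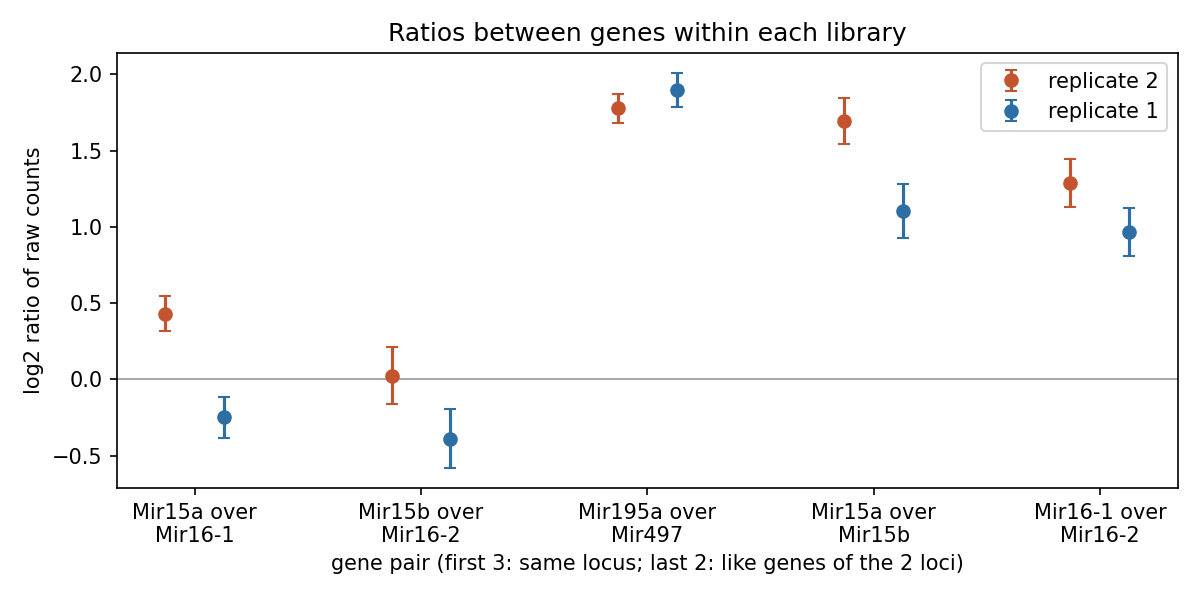
Log2 ratio of raw counts between the genes of 5 pairs in replicate 2 (left point) and replicate 1 (right point), with exact 95% counting intervals; the line marks equal counts. Both ratios of a Mir15 gene over a Mir16 gene are higher in replicate 2, while Mir195a over Mir497 has overlapping intervals, 1.78 in replicate 2 and 1.90 in replicate 1. Reads of miR-16-5p that matched both Mir16 hairpins are not in these counts.

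Markers of blood cells also differed between the libraries. Both erythroid genes were higher in replicate 2: Mir451a had 587 counts in replicate 2 and 201 in replicate 1, and Mir144 had 134 in replicate 2 and 59 in replicate 1. Together they held 0.0355% of gene counts in replicate 2 and 0.0174% in replicate 1. Red cells are known to be rich in miR-16 and miR-451. Here Mir15a was higher and both Mir16 genes lower in the library with more Mir451a. The Mir16 counts leave out reads that matched both hairpins, so they do not give the level of miR-16 in either library. Whether miR-16 followed Mir451a was not tested. Of 4 leukocyte genes, Mir142 and Mir223 were higher in replicate 2 and Mir150 and Mir155 lower, and together they held 0.229% in replicate 2 and 0.266% in replicate 1. The part of blood cells in the counts of the members was not tested.

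Other miRNAs tied to the cell cycle were read from listed genes. The lists were chosen with earlier results of these data known, so their counts give no direction for such genes in general. The restraining list leaves out the 5 members, of which 1 was higher in replicate 2 and 2 were lower. Of 3 relatives tested, Mir322, Mir497 and Mir503, also left out, Mir322 was higher (log2 ratio 0.32) and 0 were lower. Of 11 genes known to restrain division, 8 were tested: 4 were lower in replicate 2, 0 were higher and 4 missed the threshold (median log2 ratio -0.24, against 0.05 over all tested genes, of which 18.5% were lower and 19.8% higher). The lower ones were Mirlet7g, Mirlet7b and Mir26b, whose families target cyclins and cyclin-dependent kinases, and Mir26a-2. The last has 20 or more bases in common with a further miRNA gene, so its row does not give the level of miR-26a. Mirlet7g had 58157 ± 5924 CPM and a log2 ratio of -0.20, Mir26b 37560 ± 1844 CPM and -0.09, and Mirlet7b 17691 ± 3069 CPM and -0.35. In the placed reads these 3 had far higher CPM than any of the 5 members. At the members' level 58.2% of 67 other genes passed the test in either direction, against 38.3% of all tested genes. The calls of these 3 were not counted against genes of their own depth, where small ratios pass. Mirlet7i, at 44484 CPM, passed at a log2 ratio of -0.06, whereas Mir23b, at 65130 CPM and 0.01, did not. The 18.5% over all tested genes is thus no measure for these 3. Mir34a, induced by p53, had 403 counts in replicate 2 and 250 in replicate 1, and its log2 ratio of 0.26 did not pass (exact binomial test adjusted p = 0.0709).

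Of 12 genes known to favour division, 10 were tested: 3 were higher in replicate 2, 0 were lower and 7 missed the threshold (median log2 ratio 0.14), where 19.8% of all tested genes were higher. These calls, too, were not counted against genes of their own depth. Mir21a, a growth-promoting miRNA also made by fibroblasts, had 11739 ± 1194 CPM and a log2 ratio of 0.22. Mir20a and Mir18, of the miR-17-92 cluster, were higher at 0.31 and 0.57, whereas Mir17 of that cluster, at 1466 ± 40.4 CPM, had 0.07 and did not pass. Mir20a had 763 ± 111 CPM, and Mir93, of the separate miR-106b-25 cluster, had 1321 ± 41.2 CPM and did not pass. With the spread between the libraries added, 0 of the 313 genes passed, as given for the members. Whether cell division differed between the libraries was not tested.

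The genes nearest to each member in log2(CPM + 1) over both libraries were also found, with at least 10 counts in each. Mir27a and Mir320 were nearest to Mir15a, at distances of 0.22 and 0.28, and Mir872 and Mirlet7c-2 to Mir16-1, at 0.17 and 0.22. Mir128-2 and Mir1193 were nearest to Mir15b at 0.06 each, Mir485 and Mirlet7a-1 to Mir16-2 at 0.17 and 0.23, and Mir337 and Mir361 to Mir195a at 0.21 and 0.22. With 2 libraries such likeness covers little more than a similar level: Mir872, for instance, had a log2 ratio of -0.03 beside the -0.22 of Mir16-1.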

How the data were processed

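Small RNA libraries (labelled size range below 30) were made from gastrocnemius of 1 group, with 2 samples. Each deposited table gives raw counts by miRNA gene, not normalized, on mm10 with GENCODE M21, per the file descriptions. For the aligner and trimming, the sources used here give no details. The 3 count columns, from their values, ignore strand, follow the strand of the gene or oppose it; the second was used. The 4 summary rows stayed out of library sizes and tests: of the reads of replicate 2, 71.8% were at several loci, 5.99% unaligned, 1.64% outside miRNA genes and 20.6% in genes, against 69.8%, 8.11%, 2.21% and 19.9% for replicate 1.

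All 2202 identifiers matched GENCODE M21, which gave symbols, positions and hosts. Mature sequences came from RefSeq (GRCm38.p6), which matched 5 of 5 members; it has hairpins for 4. Shared stretches were searched among annotated miRNA genes on both strands, not in the genome. The gene of miR-497a is listed as Mir497.

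CPM used the gene total. The binomial test used TMM effective library sizes (edgeR 4.0.16, R 4.3.3) over the 313 genes whose counts in both libraries summed to 10 or more, adjusted over all of them; with 1 group there is no contrast for a quasi-likelihood fit. The test was checked on simulated data. Intervals are Clopper-Pearson (scipy 1.17.1); they and the floors cover counting error only, because PCR reads are not independent molecules. The alternatives tried were DESeq2 (1.42.0) size factors, library totals, no filter, counts without strand, other denominators and a pseudocount. Named genes are the members, seed relatives, up to 4 genes per list by mean CPM, and the 2 genes nearest to each member; further list genes are named where a count includes them. The members and lists were chosen with earlier results of these data known.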

Additional observations from a re-analysis of the deposited data

How the results depend on the processing

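The count of members that differed between the replicates was 3 of 5 under DESeq2 size factors, library totals, no filter on low counts and counts without strand; it was 0 with the edgeR exact negative binomial test, whose spread came from the same libraries. The log2 ratio of Mir195a, which did not pass, was 0.012 without strand. The family's share was 0.506% in the counts without strand, whose gene totals are smaller because reads in overlapping genes are unassigned, and 0.0765% of all reads. Without strand the mean levels were 867 CPM for Mir15a, 807 for Mir16-1, 326 for Mir15b, 375 for Mir16-2 and 2684 for Mir195a. On a total without the 10 highest genes they were 1825, 1697, 685, 789 and 5647 CPM. Both alternatives change the denominator alone, and the order of the genes was as in the main values. A pseudocount moved the pair ratios by less than 1 SD. Counts without strand are identical for the members and so left their pairs as they were; Mir195a over Mir497 has no value there, since Mir497 is at 0. Leaving out a replicate gives the value of the other: the log2 ratio then ran from -0.25 to 0.43 for Mir15a over Mir16-1 and from -0.39 to 0.02 for Mir15b over Mir16-2, both turning sign, while the other 3 pairs stayed positive. No paired analysis was possible because the series has 1 group.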

Other observations

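Mir497b, annotated on the strand opposite to Mir497, had no count on its own strand, while the opposite-strand column of its row held 1181 counts in replicate 2 and 809 in replicate 1, the same numbers as Mir497 on its strand. In the column without strand both genes were at 0. Mir195a, 241 bases away, had the same counts in both columns.

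Summed over the loci, a choice made after the values were seen, the miR-15 genes had 1989 counts against 1588 of the miR-16 genes in replicate 2, a ratio of 1.25 (exact 95% interval 1.17 to 1.34). In replicate 1 they had 1196 against 1467, a ratio of 0.815 (0.755 to 0.881). The Dleu2 locus had 2.84 times the counts of the Smc4 locus in replicate 2 (2.63 to 3.06) and 2.04 times in replicate 1 (1.88 to 2.21). The intervals cover counting error within each library and do not overlap between the replicates. All these sums leave out the miR-16 reads that matched both Mir16 hairpins. The ratios of 1.25 and 0.815 therefore do not give the balance of miR-15 to miR-16 in the muscle. The ratios between the loci include the Mir16 rows and rest likewise on the placed reads.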
